A study of Mus musculus with 6 samples.

Results

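The messages of 10 genes of translation control by mTORC1 and of translation elongation were examined, out of 45777 genes in the count table. They are Mtor, Rps6kb1, Ddit4, Eif4ebp1, Eif4ebp2, Eif4e, Eef1a1, Eef1a2, Eef2 and Eef2k, chosen by name for their role. All 10 were found in the TPM tables of all 6 libraries and in the count table, and all 10 passed the filter on low counts. RNA came from the tibialis anterior (TA), a fast-twitch muscle of the lower leg, of male C57BL/6J mice whose age the labels give as 24 months. Of the 6 libraries, 3 are from mice given vehicle (DMSO and Tween 80 alone) and 3 from mice given BML-260 at 5 mg/kg by intraperitoneal injection each day for about a month. BML-260 is the small molecule with which the study targets the phosphatase DUSP22. The paper says that its level in muscle may be too low to inhibit the enzyme, and it does not exclude off-target effects. The labels name no engineered allele, although the strain code beside C57BL/6J in the study's reagent list names a targeted Gpr37 allele. The study's methods give an age range and its results a later age than the labels do, so the age is known only as old. Each group is 1 treatment in 1 strain and 1 sex.

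mTORC1 is a kinase complex that lets protein synthesis run when growth factors, amino acids and energy are plentiful. It phosphorylates S6 kinase 1 (made from Rps6kb1) and the 4E-BP repressors (Eif4ebp1, Eif4ebp2), which otherwise hold the cap-binding factor eIF4E, and REDD1 (Ddit4) restrains it. After initiation, eEF1A carries each aminoacyl-tRNA to the ribosome and eEF2 moves the ribosome along, while eEF2 kinase phosphorylates and slows eEF2. Adult muscle fibers make the isoform eEF1A2 in place of most of their eEF1A1, the form of most other cells. Control of this system works largely through phosphorylation, which RNA-Seq does not measure.

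Regulatory sequence is shown first for some of these genes. Eif4ebp1 is not among them, since no promoter window was found for it. The 120 bases before the RefSeq start (assembly GRCm38.p6) are given, 5′ to 3′ on the gene's own strand, for both eEF1A isoforms, whose ratio is measured below, for Eef2 and for Ddit4. Capitals mark GGGCGG on either strand (SP1 GC box), CACGTG (E-box) and TATAAA read on the gene's strand (TATA box).
Eef1a1, chr9:78481725-78481844, minus strand: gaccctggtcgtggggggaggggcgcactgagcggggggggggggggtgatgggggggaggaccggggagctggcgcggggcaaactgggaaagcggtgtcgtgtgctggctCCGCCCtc
Eef1a2, chr2:181157016-181157135, minus strand: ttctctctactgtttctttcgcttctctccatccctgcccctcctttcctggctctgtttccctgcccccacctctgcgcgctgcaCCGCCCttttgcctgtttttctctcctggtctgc
Eef2, chr10:81176511-81176630, plus strand: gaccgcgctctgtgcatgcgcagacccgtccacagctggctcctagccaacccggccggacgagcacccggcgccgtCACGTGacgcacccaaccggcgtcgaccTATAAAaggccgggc
Ddit4, chr10:59951771-59951890, minus strand: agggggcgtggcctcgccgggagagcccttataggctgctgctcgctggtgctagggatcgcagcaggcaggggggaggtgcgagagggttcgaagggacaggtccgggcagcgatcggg
A GC box lay in these 120 bases of both Eef1a1 and Eef1a2, the E-box and the TATA box in those of Eef2, and none of them in those of Ddit4. G and C made up 75.8% of the Eef1a1 window and 57.5% of the Eef1a2 window.

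Windows of 300 bases (250 before and 50 after the start) were found for 9 of the 10 genes, 12 windows in all, since Eef2k has 3 annotated starts and Eif4e has 2. Eif4ebp1 had no window, so its promoter was not searched. GGGCGG occurred in 7 of the 12 windows, from 6 genes (Mtor, Ddit4, Eif4ebp2, Eef1a1, Eef1a2 and Eef2k). It occurred in 35.7% of the 32851 promoter windows of the table. CACGTG occurred in 3 of the 12, from Eif4e, Eef2 and Eef2k, against 7.15% of all windows. TATAAA occurred in that of Eef2, against 8.32%. The cAMP response element TGACGTCA occurred in that of Eef2, against 1.79%. Its shorter form TGACG, which it contains, also overlaps the E-box of Eef2. TGACG occurred in 4 of the 12 windows, from Eef2, Eef2k, Eif4e and Eif4ebp2, against 20.8%. The composite element TGATGNAA, a form bound by ATF4, occurred in 1 window of Eef2k, against 3.97%. The palindromic glucocorticoid response element was found in 0.00913% of all windows and in none of the 12. The FOXO element TGTTTAC was likewise in none of the 12, against 3.65% of all windows. All were searched on both strands except TATAAA, and a match is only a match of letters.

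Messages that answer most strongly to mTORC1 begin with a run of pyrimidines, the 5′ terminal oligopyrimidine (TOP) tract. The 15 bases on each side of the RefSeq start are shown for the 2 genes with only C or T in their first 5 bases, capitals marking the unbroken pyrimidine run, and for Eef2, capitals marking the cAMP response element.
Mtor, chr4:148448567-148448596, plus strand: cccgccctccccaCCTCCCTggcctagaag
Eef1a1, chr9:78481710-78481739, minus strand: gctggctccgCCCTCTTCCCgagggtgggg
Eef2, chr10:81176616-81176645, plus strand: tataaaaggccgggcgtTGACGTCAgcggt
The run across the start was 7 bases in Mtor and 10 bases in Eef1a1. Starts of this kind made up 4.44% of all windows, and Eif4ebp1 had no window to read. The annotated starts were not checked against reads, so whether any of these genes has or lacks a TOP tract was not tested. The longest pyrimidine run within the first 50 bases was 8 bases in Eef2 and 11 bases in Eef1a2.

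The libraries held between 39522890 and 56998875 counts. Vehicle replicate 3 stood apart from the others: its log2 CPM correlated across genes with those of the other 5 libraries at 0.940 to 0.948, whereas the other 5 correlated with each other at 0.972 to 0.985. All 8 markers of fast fibers were expressed, and their summed TPM was 97869 in vehicle replicate 3, 106272 to 124000 in the other vehicle libraries and 110041 to 135032 with BML-260. The summed TPM of 8 macrophage markers was 511 in vehicle replicate 3, 118 and 119 in the other vehicle libraries and 74.8 to 94.1 with BML-260, and 7 of the 8 were lower with BML-260 at the fold and p threshold given below (6 of 8 without vehicle replicate 3). Neutrophil markers (4 genes in the TPM tables) summed to 801 in vehicle replicate 3, 165 and 23.8 in replicates 1 and 2, and 6.70 to 12.1 with BML-260. All 5 neutrophil genes tested were lower at that threshold, with and without vehicle replicate 3. Erythroid markers (5 genes) summed to 8752 in vehicle replicate 3, 1949 and 2128 in the other vehicle libraries and 1619 to 2162 with BML-260. Of 7 markers of denervated fibers, all had lower estimates with BML-260 and 6 passed the threshold, again with and without that library. None of the 7 T and B lymphocyte markers passed the filter. In bulk muscle, fewer cells of a type and less RNA per cell cannot be told apart. What part these differences between libraries have in the values below was not tested.

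A log2 fold change compares BML-260 with vehicle, so that a negative value is lower with BML-260. It was estimated with edgeR's quasi-likelihood test on 16188 genes, and adjusted p-values (Benjamini-Hochberg) are over all of them. A gene was called when its fold change was 1.3 or more and its unadjusted p was under 0.05, and these limits are called the threshold below. It called 931 genes, 5.75% of those tested, 786 lower (4.86%) and 145 higher (0.896%). Of the 10 genes of translation control it called 2, Eif4ebp1 and Eef1a1, both lower with BML-260. None of the 10 had an adjusted p under 0.05 by edgeR (2 had an unadjusted p under 0.05), nor by DESeq2 or limma voom, and the smallest adjusted p among them by edgeR was 0.788. No gene of the 16188 had one under 0.05 by edgeR, where 966 (5.97%) had an unadjusted p under 0.05, whereas DESeq2 gave 95 genes (0.587%) and limma voom 1 (0.00618%). None of the 10 genes was called without vehicle replicate 3, against 3.98% of 16502 genes. None was called when any 1 of the BML-260 libraries was left out either, where 503 to 702 of all genes were. There the log2 fold changes stayed near those of all 6 libraries, at -0.56 to -0.64 for Eef1a1 and -1.47 to -1.70 for Eif4ebp1. Without vehicle replicate 1, 4 were called (Ddit4 and Eif4ebp2 as well), but so were 2223 of all 16719 genes. Without vehicle replicate 2, 3 were called (Ddit4 as well), beside 1207 of all 16719 genes. DESeq2 called 6.31% of all genes and limma voom 5.50% at the threshold, and each called Eef1a1 alone of the 10. The 10 genes had a median log2 fold change of -0.05, with 6 lower and 4 higher, beside a median of -0.00393 over all genes tested. Without vehicle replicate 3 the median was -0.03 and 5 were lower and 5 higher. The libraries are described by their labels as separate numbered samples, and p-values measure only the spread between them.

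**Figure D1:**
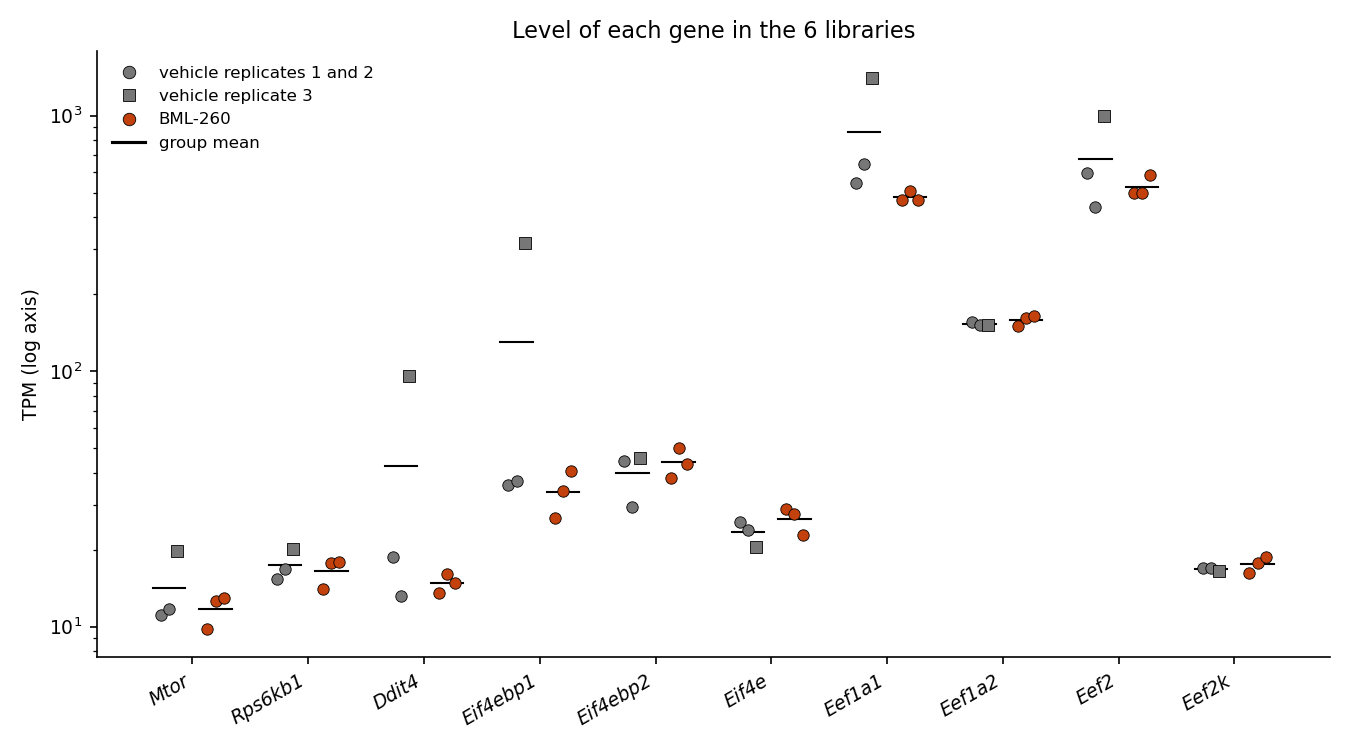
TPM (log axis) of the 10 genes in each library, with grey circles for vehicle replicates 1 and 2, grey squares for vehicle replicate 3, orange circles for the 3 BML-260 libraries and a black line for each group mean. Vehicle replicate 3 lies far above the other 5 libraries for Ddit4 (96.0) and Eif4ebp1 (318), and also for Eef1a1 (1401) and Eef2 (998), while Eef1a2 and Eef2k lie close together in all 6.

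TPM is scaled for length as well as for the total of the library, so levels of different genes can be set side by side on it as far as the lengths used are right. The counts behind a TPM of 1, per kilobase of the longest GENCODE coding transcript, were 105 for Eef1a2, 13.5 for Eif4ebp1 and 23.4 to 29.8 for the other 8 genes, so the places of Eef1a2 and Eif4ebp1 in the order depend on the length model. With BML-260 the order of mean TPM was Eef2 (527), Eef1a1 (482), Eef1a2 (159), Eif4ebp2 (43.9), Eif4ebp1 (33.7), Eif4e (26.5), Eef2k (17.5), Rps6kb1 (16.5), Ddit4 (14.8) and Mtor (11.8). Along that order, 4 of the 9 neighbouring pairs had ranges that did not overlap: Eef1a1 over Eef1a2, Eef1a2 over Eif4ebp2, Eif4e over Eef2k, and Ddit4 over Mtor. Counts per kilobase of the GENCODE transcripts, a scale added after the values were seen, put Eef1a1 below Eef1a2 in all 3 BML-260 libraries (ratios of 0.744 to 0.818). The elongation factors were therefore the most abundant messages and the kinase itself the least abundant. In the vehicle group the order of the means was Eef1a1 (863), Eef2 (678), Eef1a2 (153), Eif4ebp1 (130), Ddit4 (42.6), Eif4ebp2 (39.9), Eif4e (23.4), Rps6kb1 (17.4), Eef2k (16.8) and Mtor (14.2). There, 3 neighbouring pairs had ranges that did not overlap: Eef2 over Eef1a2, Eif4ebp2 over Eif4e, and Eif4e over Rps6kb1. The summed TPM of the 10 genes was 1463, 1385 and 3087 in vehicle replicates 1, 2 and 3, and 1266, 1341 and 1391 in BML-260 replicates 1, 2 and 3.

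Mtor (gene ID 56717, chr4:148448582-148557685, GRCm38) encodes the catalytic subunit of mTORC1 and mTORC2. Its TPM was 11.1, 11.8 and 19.7 in vehicle replicates 1, 2 and 3, and 9.76, 12.6 and 12.9 in BML-260 replicates 1, 2 and 3. The groups overlapped, and vehicle replicate 3 was the highest library. The log2 fold change was -0.07 (SE 0.14, adjusted p = 0.906 by edgeR), and without vehicle replicate 3 it was 0.01. Angptl7, a secreted angiopoietin-like protein, lies within Mtor on the opposite strand with no shared exon in GENCODE. Its counts were 4831 in vehicle replicate 3 and 244 to 917 in the other 5 libraries, beside 4479 and 2359 to 3019 for Mtor. Whether the counting used strand is not given in the sources used here.

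Rps6kb1 (gene ID 72508, chr11:86498869-86544885) encodes S6 kinase 1, which phosphorylates ribosomal protein S6. Its TPM was 15.3, 16.8 and 20.1 in the vehicle libraries and 14.0, 17.7 and 17.9 in the BML-260 libraries. The groups overlapped, with vehicle replicate 3 the highest library on this scale and BML-260 replicate 1 the lowest. S6 kinase 1 had a log2 fold change of -0.03 (SE 0.14, adjusted p = 0.959 by edgeR), and -0.08 without vehicle replicate 3. Its exons overlap those of Rnft1 on the opposite strand by 155 bases.

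Ddit4 (gene ID 74747, chr10:59949675-59951770) encodes REDD1, an inhibitor of mTORC1 that stress and glucocorticoids induce. Its TPM was 18.7, 13.2 and 96.0 in vehicle replicates 1, 2 and 3, and 13.5, 16.1 and 14.8 in BML-260 replicates 1, 2 and 3. A single library, vehicle replicate 3, was high, and the other 2 vehicle libraries lay on either side of the BML-260 range. In normalized CPM (CPM, library-size-scaled counts, after TMM scaling) vehicle replicate 3 was 3.67 times the highest other library. Its log2 fold change of -1.18 (SE 0.53, adjusted p = 0.788 by edgeR) missed the p limit of the threshold, but the gene was called with no filter on low counts (-1.18), without vehicle replicate 1 (-1.46) and without vehicle replicate 2 (-1.55). It shrank to -0.12 (SE 0.16) without vehicle replicate 3.

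Eif4ebp1 (gene ID 13685, chr8:27260327-27275656) encodes 4E-BP1, a repressor of cap-dependent initiation. Its TPM was 36.0, 37.3 and 318 in vehicle replicates 1, 2 and 3, and 26.6, 33.9 and 40.7 in BML-260 replicates 1, 2 and 3. Vehicle replicate 3 alone was high, at 5.72 times the highest other library in normalized CPM, and the other 5 libraries overlapped. Mean TPM in the vehicle group was 130 ± 163 (SD, n = 3), against 33.7 ± 7.02 (SD, n = 3) in the BML-260 group. The difference, a log2 fold change of -1.58 (SE 0.65, adjusted p = 0.788 by edgeR), passed the threshold. Leaving out vehicle replicate 3 brought it to -0.15 (SE 0.15), and the gene was no longer called. It was not called by DESeq2 or limma voom either.

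Across all genes tested, 3.54% were at least 2-fold above every other library in vehicle replicate 3 in normalized CPM, and Ddit4 and Eif4ebp1 were the 2 of the 10 genes that were. They stood at percentiles 99.3 and 99.8 of all genes by that fold.

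Eif4ebp2 (gene ID 13688, chr10:61428491-61452790) encodes 4E-BP2. Its TPM was 44.4, 29.5 and 45.8 in the vehicle libraries and 38.3, 49.98 and 43.4 in the BML-260 libraries. In TPM, vehicle replicate 2 was low and the other 5 libraries overlapped, so the message did not share the peak of Eif4ebp1 in vehicle replicate 3. In normalized CPM, vehicle replicates 2 and 3 were both low, at 100 and 110. Vehicle replicate 1 was at 148 there, and the BML-260 libraries at 138 to 159. BML-260 over vehicle, its log2 fold change was 0.29 (SE 0.18, adjusted p = 0.788 by edgeR) and 0.23 without vehicle replicate 3. Leaving out vehicle replicate 1 in its place gave 0.48, which passed the threshold.

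Eif4e (gene ID 13684, chr3:138526191-138559696) encodes the factor that binds the cap of the message and that both 4E-BPs hold. Its TPM was 25.7, 23.9 and 20.5 in the vehicle libraries and 28.9, 27.6 and 22.9 in the BML-260 libraries. Vehicle replicate 3 was the lowest library, and the groups overlapped. For Eif4e the log2 fold change was 0.12 (SE 0.23, adjusted p = 0.891 by edgeR), and its sign turned to -0.08 without vehicle replicate 3.

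Within a library, the ratio of Eif4ebp1 to Eif4ebp2 TPM was 0.810, 1.26 and 6.94 in vehicle replicates 1, 2 and 3, and 0.695, 0.679 and 0.936 in BML-260 replicates 1, 2 and 3. The ratio in vehicle replicate 3 was 7.92 times the mean of the other 5. On counts per kilobase of the GENCODE transcripts the ratio was 0.421, 0.678 and 3.60 in the vehicle libraries and between 0.357 and 0.498 in the BML-260 libraries, so that its level depends on the length model. The mean log2 ratio was -1.34 with BML-260 relative to vehicle (exact permutation test, 2-sided, p = 0.2, where 3 against 3 libraries cannot give less than 0.1). Without vehicle replicate 3 the difference was -0.41 (exact permutation p = 0.3). The summed TPM of both 4E-BPs over that of Eif4e was 3.13, 2.80 and 17.8 in the vehicle libraries and 2.24, 3.04 and 3.68 in the BML-260 libraries. Again 5 libraries overlapped and vehicle replicate 3 did not. That difference was -0.88 on the log2 scale (exact permutation p = 0.5) and -0.02 without vehicle replicate 3 (exact permutation p = 1). Its size depended on the scale, at -0.20 on counts, -0.50 on counts per kilobase of the GENCODE transcripts and -0.04 between the medians of the TPM ratios.

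**Figure D2:**
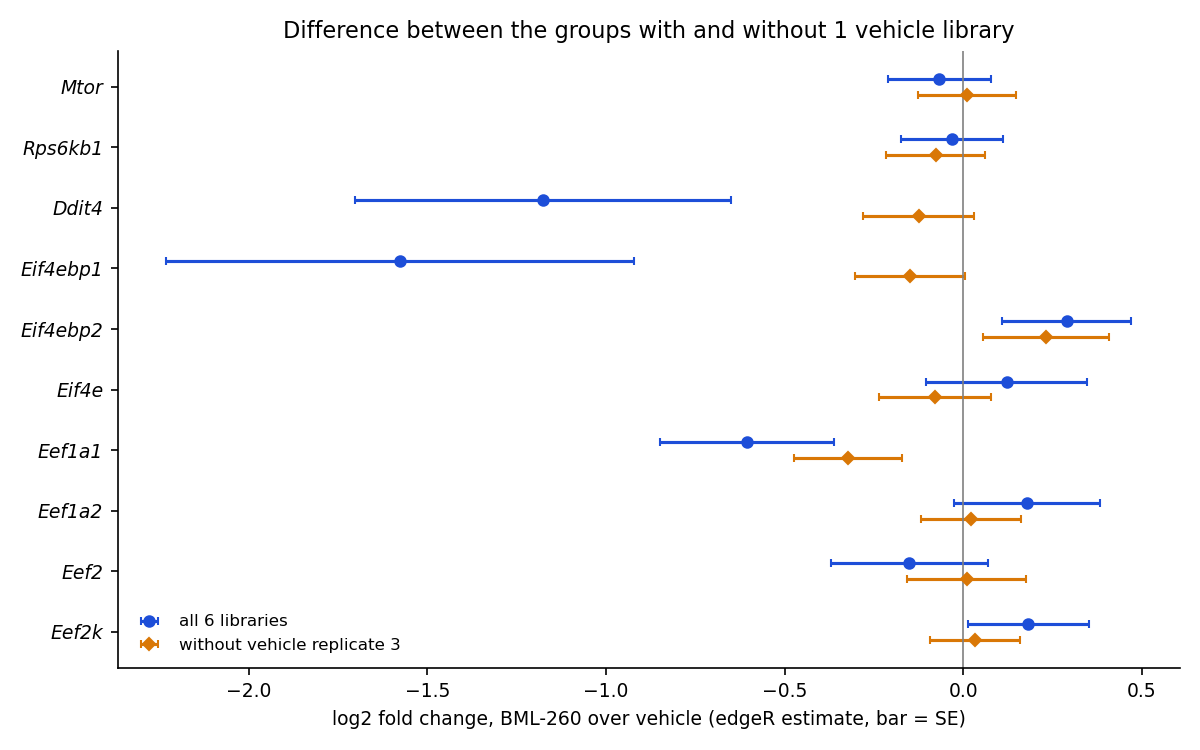
Log2 fold change of BML-260 over vehicle for each of the 10 genes, as estimated by edgeR with its SE as a bar, from all 6 libraries (blue circles) and without vehicle replicate 3 (orange diamonds). Ddit4 moves from -1.18 to -0.12 and Eif4ebp1 from -1.58 to -0.15, whereas Eef1a1 moves from -0.60 to -0.32.

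Of the 10 genes, Eef1a1 alone had groups that did not overlap in TPM. Eef1a1 (gene ID 13627, chr9:78478453-78481724) encodes eEF1A1. Its TPM was 543, 644 and 1401 in vehicle replicates 1, 2 and 3, and 469.8, 507 and 469.3 in BML-260 replicates 1, 2 and 3. Every vehicle library was above every BML-260 library. The means were 863 ± 469 (SD, n = 3) and 482 ± 21.7 (SD, n = 3), and the mean of vehicle replicates 1 and 2 alone was 594. In normalized CPM it was likewise the only one of the 10 genes whose groups did not overlap. That is no more than the share of all genes tested, 12.1%. Its log2 fold change of -0.60 (SE 0.24, adjusted p = 0.788 by edgeR) passed the threshold. The 5 other libraries gave -0.32 (SE 0.15), and there the gene was no longer called. Counts on the pseudogene Eef1a1-ps1 were 23 to 82, beside 18961 to 68476 on Eef1a1, and how reads that fit several places were counted is not given in the sources used here.

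Eef1a2 (gene ID 13628, chr2:181141758-181157015) encodes eEF1A2, the isoform of muscle, heart and neurons. Its TPM was 156, 152 and 152 in the vehicle libraries and 150.5, 162 and 164 in the BML-260 libraries. On this scale it was the steadiest of the 10 genes, with the highest library 1.09 times the lowest. In normalized CPM it was 761, 778 and 528 in vehicle replicates 1, 2 and 3, and 801, 758 and 782 in BML-260 replicates 1, 2 and 3. Vehicle replicate 3 was therefore the low library after TMM scaling and level with the others in TPM. Its log2 fold change was 0.18 (SE 0.20, adjusted p = 0.831 by edgeR) and 0.02 without vehicle replicate 3. Over the 5 other libraries its coefficient of variation in normalized CPM was 2.26%, beside a median of 14.9% over all genes.

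The ratio of Eef1a1 to Eef1a2 does not depend on the scaling of a library. In TPM it was 3.47, 4.24 and 9.22 in vehicle replicates 1, 2 and 3, and 3.12, 3.14 and 2.85 in BML-260 replicates 1, 2 and 3. Every vehicle library again lay above every BML-260 library, and vehicle replicate 3 was 2.74 times the mean of the other 5. The vehicle ratios averaged 5.64 ± 3.12 (SD, n = 3), against 3.04 ± 0.160 (SD, n = 3) in the BML-260 group. The mean log2 ratio was -0.76 with BML-260 relative to vehicle (exact permutation test, 2-sided, p = 0.1, the smallest that 3 against 3 libraries can give). Without vehicle replicate 3 the mean of the vehicle ratios was 3.86 and the difference -0.34, in the same direction (exact permutation p = 0.1, also the smallest possible there).

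The level of this ratio, unlike the difference between the groups, depends on the length assigned to Eef1a2. A TPM of 1 stood for 4.46 times as many counts in Eef1a2 as in Eef1a1, whereas the longest GENCODE coding transcripts are 2084 and 1794 bases long, a ratio of 1.16. The RefSeq end of Eef1a2 lies 5895 bases beyond the GENCODE end. On counts per kilobase of the GENCODE transcripts, the ratio was 0.905, 1.11 and 2.40 in the vehicle libraries and 0.814, 0.818 and 0.744 in the BML-260 libraries. Which isoform has the more abundant message thus differed between the length models in 4 of the 6 libraries, while the log2 difference of -0.76 did not change.

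**Figure D3:**
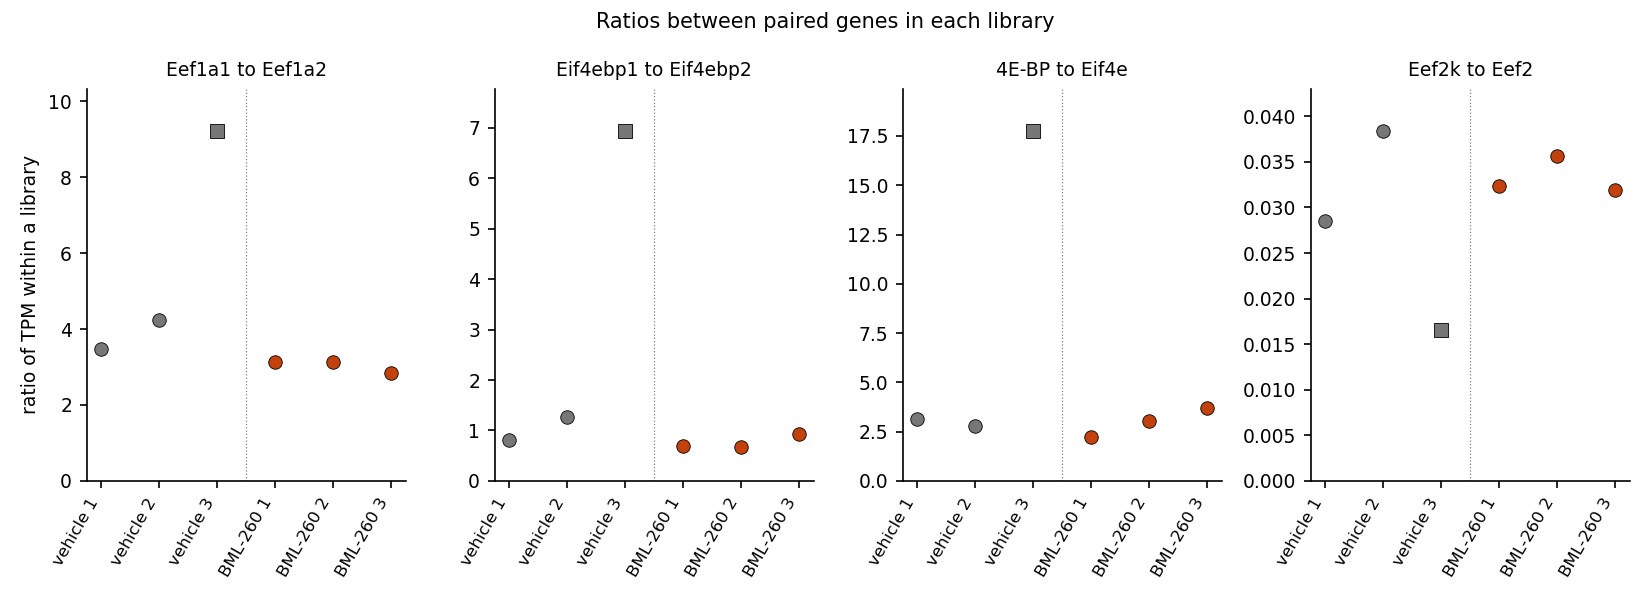
Ratio of TPM within each library for 4 pairs of genes, with grey for vehicle, orange for BML-260, a square for vehicle replicate 3 and axes that start at 0. Vehicle replicate 3 is the extreme library in all 4 panels, and only for Eef1a1 to Eef1a2 do the other vehicle libraries (3.47 and 4.24) both lie above every BML-260 library (at most 3.14).

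Eef2 (gene ID 13629, chr10:81176631-81182509) encodes eEF2, which translocates the ribosome. Its TPM was 595, 440.1 and 998 in vehicle replicates 1, 2 and 3, and 498, 496 and 586 in BML-260 replicates 1, 2 and 3. Vehicle replicate 3 was the highest library and vehicle replicate 2 the lowest, so the BML-260 libraries fell inside the vehicle range. For Eef2 the log2 fold change was -0.15 (SE 0.22, adjusted p = 0.861 by edgeR) and 0.01 without vehicle replicate 3. Of the broadly expressed factors, Eef1a1 had groups that did not overlap and Eef2 had groups that did, and the difference between these genes was not tested.

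Eef2k (gene ID 13631, chr7:120842642-120907219) encodes the kinase that slows eEF2. Its TPM was 17.0, 16.9 and 16.5 in the vehicle libraries and 16.1, 17.7 and 18.7 in the BML-260 libraries. The 6 values were close together and the groups overlapped. In normalized CPM vehicle replicate 3 was the lowest library at 45.7, beside 64.4 to 68.2 in the others. The log2 fold change was 0.18 (SE 0.17, adjusted p = 0.803 by edgeR) and 0.03 without vehicle replicate 3. The ratio of Eef2k to Eef2 TPM was 0.0285, 0.0384 and 0.0165 in the vehicle libraries and 0.0324, 0.0357 and 0.0320 in the BML-260 libraries. The BML-260 ratios lay between those of vehicle replicates 1 and 2. The log2 difference was 0.34 (exact permutation p = 0.5) and 0.01 without vehicle replicate 3 (exact permutation p = 1).

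In normalized CPM, vehicle replicate 3 was the highest library for 5 of the 10 genes (Mtor, Ddit4, Eif4ebp1, Eef1a1 and Eef2) and the lowest for 4 (Rps6kb1, Eif4e, Eef1a2 and Eef2k). Over all genes tested it was the highest for 31.4% and the lowest for 32.1%. The fifth high gene, Mtor, was only 1.08 times the next library.

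The genes whose log2 CPM followed the members most closely over the 6 libraries were named by Pearson correlation, as a description in which all points share the same libraries. For Eif4ebp1 they were Irs2 (0.999), an adaptor of the insulin receptor, Nt5c2 (0.999), a cytosolic nucleotidase, and Hs6st1 (0.997), a heparan sulfate sulfotransferase. For Ddit4 they were Fmo2 (0.999), a monooxygenase, Rapgef5 (0.998), an exchange factor of Rap GTPases, and Trim63 (0.993), the ubiquitin ligase MuRF-1. For Eef1a1 they were the poly(A)-binding protein gene Pabpc1 (0.995), Plac8 (0.992) and Fas (0.992), a death receptor. All 9 of these genes were highest in vehicle replicate 3, at 1.19 to 3.63 times the highest other library. They were picked for following genes that were themselves highest there, so their peak is not a separate result. For Eef1a2 they were Col6a6 (0.998), a collagen VI chain, Poll (0.998), a DNA polymerase, and Slc25a29 (0.997), a mitochondrial carrier of basic amino acids. In these, vehicle replicate 3 stood at 0.0956 to 0.691 times the highest other library, again a result of the choice, since Eef1a2 was lowest there. Whether any of these genes are regulated together was not tested.

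Other genes of the system were read from the same test, which called 5.75% of all genes tested. Of 13 mTORC1 subunits and direct regulators, none was called and none had an unadjusted p under 0.05 by edgeR, and none was called by DESeq2 or limma voom. Their median log2 fold change was 0.14 (8 higher and 5 lower), and 0.06 without vehicle replicate 3. The most abundant, Ddit4l, which encodes the REDD1 relative REDD2, had TPM values of 136, 90.4 and 31.5 in vehicle replicates 1, 2 and 3, and 120, 116 and 108 in BML-260 replicates 1, 2 and 3. Vehicle replicate 3 was thus the low library for Ddit4l and the high library for Ddit4. For Ddit4l the log2 fold change was 0.46 (SE 0.52) and 0.01 without vehicle replicate 3. Sesn1, a sestrin that senses leucine for mTORC1, was chosen after its values were seen: its TPM was 10.6, 15.2 and 153 in the vehicle libraries and 10.5, 14.9 and 16.4 in the BML-260 libraries, the same single high library as for Ddit4. The log2 fold change of -1.67 (SE 0.75) became 0.06 without vehicle replicate 3.

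Of 24 genes of lysosomal amino acid sensing (the Rag GTPases, Ragulator, GATOR, KICSTOR, folliculin and CASTOR genes and Slc38a9), none was called and none had an unadjusted p under 0.05 by edgeR, and none was called by DESeq2 or limma voom. Their median log2 fold change was 0.10, with 17 higher and 7 lower, and 0.05 without vehicle replicate 3. Rragd, a Rag GTPase and the most abundant of them, had TPM values of 96.6, 76.8 and 104 in the vehicle libraries and 94.3, 112 and 95.3 in the BML-260 libraries, which overlapped.

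Of 19 genes of cap-dependent initiation, 3 were called, all lower with BML-260, beside 5.75% of all genes tested. Without vehicle replicate 3, 1 of them was called, beside 3.98% of all genes. The median log2 fold change of the list was 0.03, since 10 of the 19 were higher. Mknk2 encodes the kinase MNK2, which phosphorylates eIF4E. Its TPM was 145, 149 and 403 in vehicle replicates 1, 2 and 3, and 83.3, 113 and 135 in BML-260 replicates 1, 2 and 3, with no overlap. Its log2 fold change was -0.83 (SE 0.29, adjusted p = 0.782 by edgeR) and -0.44 without vehicle replicate 3, where it was still called. Eif4a1, the helicase of the cap-binding complex, had TPM values of 94.4, 98.8 and 224 in the vehicle libraries and 66.5, 82.2 and 78.4 in the BML-260 libraries, again with no overlap. Its log2 fold change was -0.65 (SE 0.21) and -0.38 without vehicle replicate 3, where it was not called. Pabpc1, the third, had TPM values of 31.2, 35.7 and 67.8 in the vehicle libraries and 27.0, 30.2 and 26.8 in the BML-260 libraries. Its groups did not overlap either, and its log2 fold change was -0.46 (SE 0.18) and -0.27 without vehicle replicate 3. Rps6, the substrate of S6 kinase, had the highest mean TPM of the list over the 6 libraries (241.5, beside 234 for Eif4a2), which rested on vehicle replicate 3, since Eif4a2 was above it in the other 5 libraries. It had TPM values of 228, 178 and 461 in the vehicle libraries and 180.1, 208 and 194 in the BML-260 libraries, which overlapped, and a log2 fold change of -0.34 (SE 0.22).

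Of 18 cytosolic elongation factors and their modifying enzymes, 17 were tested and 1 was called, beside 5.75% of all genes tested. Eef1akmt4, a methyltransferase of eEF1A, had TPM values of 7.03, 4.399 and 7.17 in vehicle replicates 1, 2 and 3, and 3.51, 3.59 and 3.32 in BML-260 replicates 1, 2 and 3. The groups did not overlap, and vehicle replicate 1 was as high as replicate 3. The log2 fold change was -0.67 (SE 0.24, adjusted p = 0.788 by edgeR) and -0.73 without vehicle replicate 3, where it was still called. Eef1g, the most abundant of the list and a subunit of the factor that reloads eEF1A with GTP, had TPM values of 389, 287.5 and 383 in the vehicle libraries and 331, 329 and 323 in the BML-260 libraries, which overlapped. The list's median log2 fold change was 0.04, and -0.02 without vehicle replicate 3. None of 4 mitochondrial elongation factors was called by edgeR, DESeq2 or limma voom, and none had an unadjusted p under 0.05 by edgeR. Tufm, the most abundant, had TPM values of 67.6, 63.1 and 43.0 in the vehicle libraries and 61.8, 61.2 and 62.6 in the BML-260 libraries.

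Targets of transcription factors that also induce Ddit4 or Eif4ebp1 were read in the same way, again beside 5.75% of all genes called. Of 13 ATF4 targets, 1 was called, Slc7a5, a transporter of large neutral amino acids. Its TPM was 0.631, 1.24 and 3.56 in the vehicle libraries and 0.834, 0.476 and 0.569 in the BML-260 libraries, which overlapped. The log2 fold change was -1.20 (SE 0.50), and -0.55 without vehicle replicate 3, where it was not called. The list's median was -0.14, and 0.06 without that library. Vldlr, a lipoprotein receptor and the most abundant of the list, had TPM values of 112 to 134 with vehicle and 113 to 131 with BML-260. Of 10 glucocorticoid receptor targets, 1 was called. Mt2, a metallothionein that binds zinc, had TPM values of 6.13, 9.67 and 224 in vehicle replicates 1, 2 and 3, and 2.84, 2.06 and 4.66 in BML-260 replicates 1, 2 and 3. Vehicle replicate 3 was far above all others, yet all vehicle libraries were above all BML-260 libraries, and the log2 fold change of -4.20 (SE 1.20) became -1.34 without vehicle replicate 3, where it was still called. Pdk4, which restrains pyruvate oxidation and was the most abundant of the list, had TPM values of 471, 378 and 431 in the vehicle libraries and 219, 423 and 362 in the BML-260 libraries. The median of the 10 was -0.25 (9 lower and 1 higher), and 0.04 (4 lower and 6 higher) without vehicle replicate 3.

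**Figure D4:**
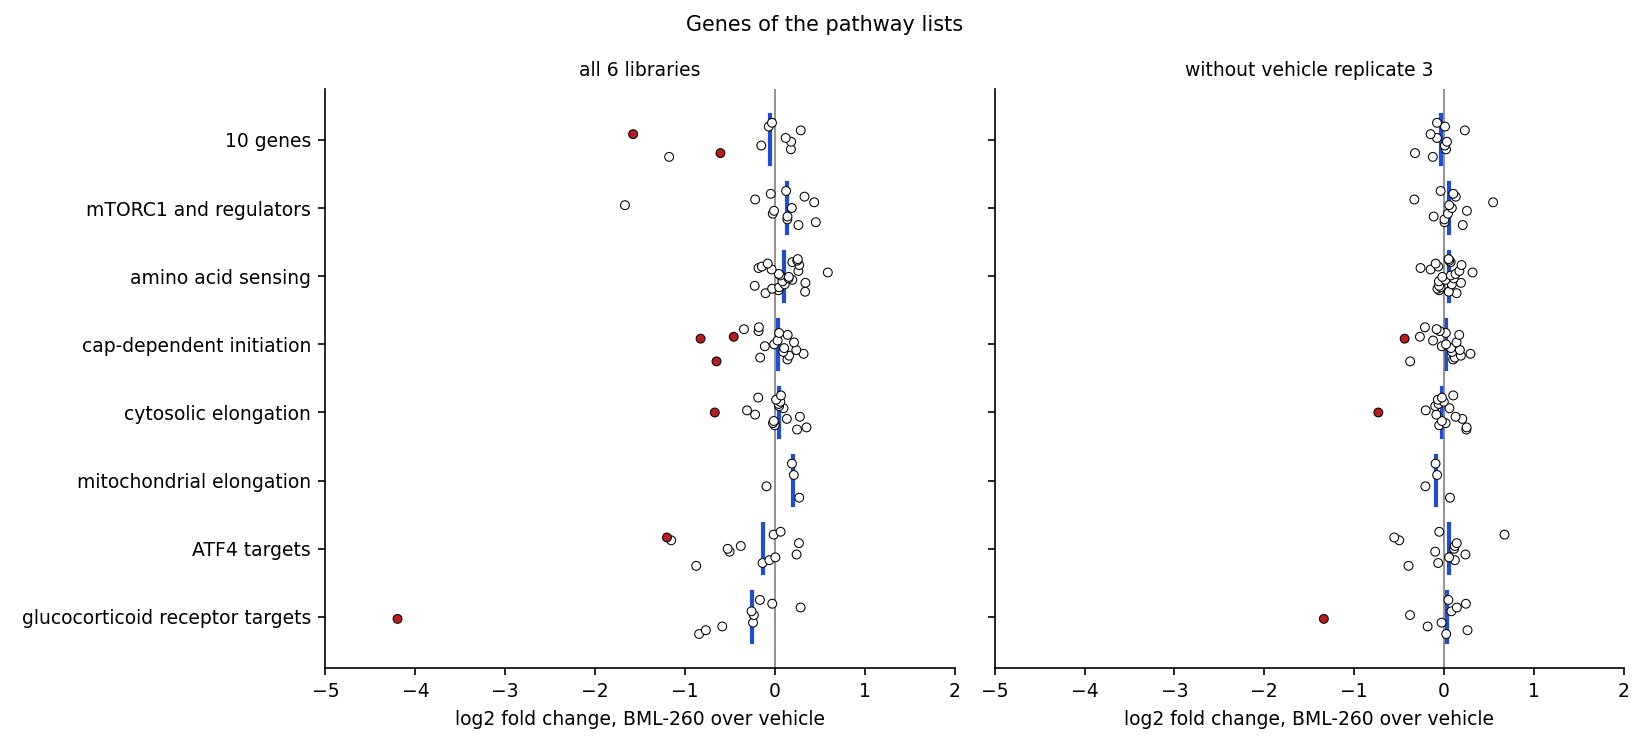
Log2 fold change (BML-260 over vehicle, edgeR) of each gene of the pathway lists from all 6 libraries (left) and without vehicle replicate 3 (right), with filled points for genes called at the fold and p threshold and a blue line for the median of each list. In all 7 lists beside the 10 genes the medians lie between -0.25 and 0.20 on the left. The called genes all lie to the left of 0, the side that holds 84.4% of the calls over all genes from all 6 libraries.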

How the data were processed

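RNA was extracted from TA muscle by the authors and sequenced by a commercial provider from libraries of a stranded total RNA kit. Per the labels, reads were handled with StringTie 2.1.3b, HISAT2 2.1.0, Trimmomatic 0.38 and Bowtie2 2.3.4.1 on mm10 (listed in no order). The deposited counts are raw counts per gene without normalization. The deposited TPM values were scaled by the authors for transcript length and library total. The annotation, strand setting and treatment of reads that fit several places are not given in the sources used here. The 10 genes, the pathway lists and the tests were chosen with earlier results of these data known.

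edgeR 4.0.16 was run in R 4.3.3. filterByExpr by group left 16188 genes (99.95% of counts), TMM set the scale, and groups were compared by the quasi-likelihood F-test with Benjamini-Hochberg adjustment. The SE is the log2 fold change divided by the square root of F. Normalized CPM uses TMM scaling, and log2 CPM a prior count of 2. Ratios were compared by exact permutation tests over all assignments of the libraries. The test was also tested on simulated data, at an adjusted p under 0.05. With no gene changed, 1 of 15816 genes passed. It recovered 45 of 196 genes changed by a log2 of 1, 161 of 190 changed by 2 and 183 of 188 changed by 3. Beside these, 6, 15 and 17 unchanged genes passed.

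Named were the 10 genes, from each list up to 5 called genes and the most abundant one, and the 3 genes most correlated with Eif4ebp1, Ddit4, Eef1a1 and Eef1a2, leaving out genes without a curated name. Any other gene was chosen after its values were seen. Promoter sequences are from RefSeq (GRCm38.p6), and exons and transcript lengths from GENCODE M21 on the same build. The alternatives were RLE and upper quartile scaling, no filter, a minimum of 10 counts in every library, the replicate number as a block, omission of 1 library at a time, DESeq2 1.42.0 with and without apeglm 1.24.0, limma 3.58.1 (voom with quality weights, or trend on log2 of TPM plus 1 or plus 0.1), a robust dispersion, and for ratios counts in place of TPM or medians in place of means. Counts per kilobase of GENCODE transcripts were added after the data were seen. matplotlib 3.10.9 drew the figures.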

Additional observations from a re-analysis of the deposited data

How the results depend on the processing

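The edgeR call counts changed with the processing as follows. Genes called (931) became 1416 with no filter on low counts, 503 with limma on log2(TPM + 1) and 113 (16 higher, 97 lower) with DESeq2 fold changes shrunken by apeglm, and ran from 503 to 2223 when 1 library was left out. The count with an adjusted p under 0.05 (0) became 1 with no filter, 1 with at least 10 counts in every library, 1 with a robust dispersion, 1 with limma voom and 95 with DESeq2, and ran from 0 to 9 when 1 library was left out. Of the 10 genes, the 2 called became 3 with no filter (Ddit4 as well), 1 with a robust dispersion, DESeq2 or limma voom (Eef1a1 in each), 0 with the replicate block, and 0 with limma on log2(TPM + 1) or log2(TPM + 0.1). Leaving out 1 library gave 0 to 4: without vehicle replicate 1 Ddit4 and Eif4ebp2 were called as well, without vehicle replicate 2 Ddit4 was (3 in all), and none was without vehicle replicate 3 or any 1 BML-260 library. Among the lists, no filter gave 1 mTORC1 regulator (0) and 2 glucocorticoid receptor targets (1), the replicate block gave 1 amino acid sensing gene (0), and ATF4 targets (1) fell to 0 with the block, limma voom and both TPM fits. With 1 library left out, the counts ran from 0 to 2 for mTORC1 regulators, 0 to 1 for amino acid sensing, 1 to 3 for initiation, 0 to 1 for elongation, 0 to 2 for ATF4 targets and 1 to 3 for glucocorticoid receptor targets.

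Among single genes, Eif4e turned from 0.12 to -0.0343 and Eef2 from -0.15 to 0.0300 with limma voom. With 1 library left out, the log2 fold change ran from -0.0784 to 0.272 for Eif4e, -0.299 to 0.00921 for Eef2, -0.0835 to 0.0728 for Rps6kb1 and -0.137 to 0.0108 for Mtor. Of 170 fits of single genes, 138 kept direction and side of the threshold, 19 lost the call, 4 gained it and 9 turned sign. Only the 2 called genes could lose the call. Eif4ebp1 lost it in 11 fits and kept it in 6, and Eef1a1 lost it in 8 and kept it in 9. The 4E-BP to Eif4e ratio differed by -0.20 on counts and -0.04 between medians, against -0.88. Shrinkage by apeglm took Eif4ebp1 to -0.000581 and Eef1a1 to -0.00311. The cause of these changes was not tested. Same-numbered libraries of the 2 groups correlated at 0.162, 0.0541 and 0.110 in their deviations from the group means. Differently numbered libraries correlated at -0.124 to -0.0206, so each library correlated best with its own number. Whether the numbers pair the mice was not settled, and the main test left the libraries unpaired. The replicate block called 1057 genes in place of 931. Paired by number, the exact permutation p of the Eef1a1 to Eef1a2 ratio was 0.25 (the smallest 3 pairs can give). The share of lower calls (84.4%) was 69.2% with the replicate block, 71.4% with limma voom, 62.4% without vehicle replicate 1 and 73.4% without vehicle replicate 3. In the TPM fits the all-gene median lay at -0.10 (pseudocount 1) and -0.14 (0.1), so their values are relative to that. Each of the 10 genes had at least 520 counts in every library.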
